A study of Mus musculus with 6 samples.

Results

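The RNA of 9 chemokine receptor genes that guide T cells into inflamed or non-lymphoid tissue was compared between CD4_N cells of Foxo1TKO and Foxo1Ctrl mice after activation in culture. The genes are Cxcr3, Cxcr4, Cxcr6, Ccr2, Ccr4, Ccr6, Ccr8, Ccr9 and Ccr10 and were taken as a list of names. They are 9 of the 55487 genes in the count files. Of the 9, 8 are in the deposited normalized table and 8 passed the filter on low counts (at least 10 counts in at least 3 libraries), as did 13691 genes in all. The exception in each case was Ccr10.

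Each group had 3 libraries. Both groups were naive CD4 T cells (CD4_N) sorted from lymph nodes of C57BL/6J mice and activated over 4 days by anti-CD3 (0.1 µg/ml, in solution) presented by 250000 CD3εKO splenocytes, a spleen population without T cells. Foxo1TKO mice carry a floxed Foxo1 gene and a Cre driven by the CD4 promoter, which acts before T cells leave the thymus, so that both CD4 and CD8 T cells lack the transcription factor Foxo1. Foxo1Ctrl mice carry the floxed gene without Cre. The study describes the Foxo1TKO mice as young adults carrying a Foxp3-GFP reporter, and the ages of the mice behind each library are not given in the sources used here. The labels give 50000 naive cells per culture and peripheral lymph nodes, whereas the study's methods name pooled peripheral and mesenteric lymph nodes and describe cultures of a larger cell number. It is not stated whether splenocytes were removed before RNA was extracted, or whether libraries of a genotype came from separate animals, so that p-values measure the spread between these libraries only.

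Chemokine receptors are membrane proteins that couple to inhibitory G proteins and turn a gradient of a secreted chemokine into directed cell movement. Naive T cells circulate through lymph nodes by means of CCR7, and activated T cells take up other receptors, whose ligands are made in inflamed tissue, skin, gut, lung or bone marrow. CXCR3 is the receptor of type 1 helper cells, CCR4 and CCR8 are carried by type 2 helper, skin-homing and regulatory T cells, CCR6 by type 17 helper cells, and CCR9 by cells bound for the small intestine. Foxo1 is a forkhead transcription factor that maintains the homing receptors of naive T cells.

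The targeted gene behaved as the labels say. Foxo1 was at 85.4, 46.5 and 115 TMM-normalized counts in the Foxo1TKO libraries and at 1529, 2285 and 1598 in the Foxo1Ctrl libraries. TMM-normalized counts are expected counts divided by each library's relative effective size, and they compare a gene between libraries. The libraries held from 14783890 to 19675447 expected counts, and pairs of one genotype differed by well more than sampling noise.

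T cell transcripts were present in both genotypes, with Cd3e between 7457 and 11181 TMM-normalized counts and 10 of 10 listed T cell genes tested (none called higher, 1 lower, Cd28). Transcripts of the added splenocytes differed between genotypes. The 10 B cell genes summed to between 5264 and 6326 TMM-normalized counts in Foxo1TKO and to between 13237 and 21964 in Foxo1Ctrl, with 5 of the 9 tested called lower and none higher. Of 3 tested plasma cell genes 2 were called lower. The monocyte and macrophage genes summed to between 69.3 and 100.9 in Foxo1TKO and to between 44.6 and 56.0 in Foxo1Ctrl, most of it Cd68, while C1qa was at 0 in every library and Csf1r and Adgre1 at no more than 3.38. None of the genes tested was called for the dendritic cell (2 tested), erythroid (3) or CD8 and gamma delta T cell (2) lists, and no neutrophil gene passed the filter. Of the NK cell genes 1 of 4 tested was called higher (Eomes), of the proliferation genes 2 of 6 were called higher and of the stromal and endothelial genes 1 of 2 was called lower (Pecam1). In the regulatory T cell list 1 of 7 was called higher (Ikzf2) and 2 lower (Ctla4 and Nrp1), and Foxp3 stayed between 6.44 and 27.4 TMM-normalized counts in all libraries.

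Of the 8 members tested, 5 differed between genotypes by more than 1.5-fold with an adjusted p below 0.05. Ccr8, Ccr9 and Ccr6 rose in Foxo1TKO, and Cxcr3 and Ccr2 fell. By the same rule 23.0% of all genes tested were called, 11.1% higher and 11.8% lower, so that a call as such was common in this comparison. The libraries of the genotypes did not overlap for the same number of members, 5, and for 42.7% of all genes tested. The median absolute log2 fold change was 2.00 for the 8 members and 0.46 for all genes tested, and the median signed log2 fold change was 0.74 and 0.01. The members were chosen with earlier results of these data known, so these medians describe them and are not a test of the set. Leaving out single libraries gave between 4 and 7 called members, and Ccr8, Ccr9, Cxcr3 and Ccr2 were among them each time.

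**Figure D1:**
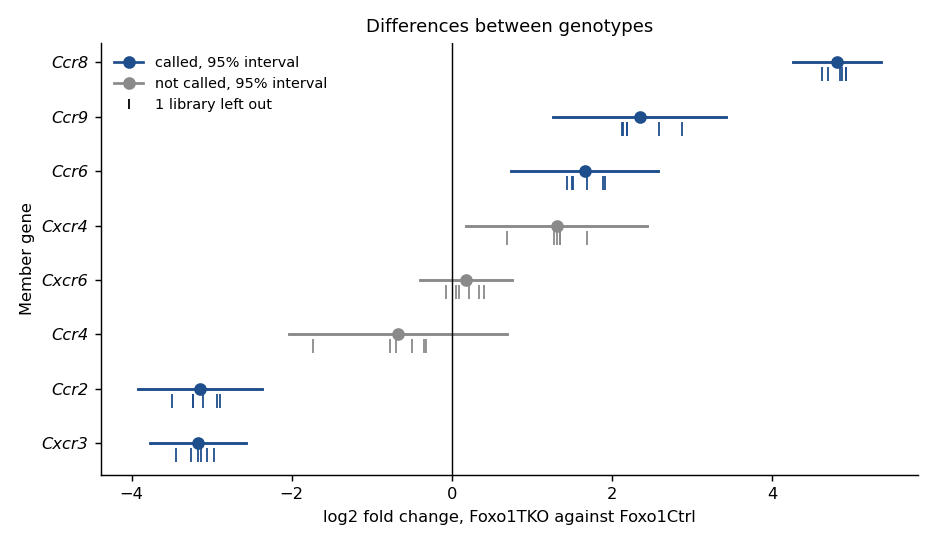
Log2 fold change of each tested member in Foxo1TKO against Foxo1Ctrl (x axis). Dots and lines give edgeR's estimate with its unadjusted 95% interval from 3 libraries per genotype, blue for called members and grey for the others, and the ticks under each line give the estimate with 1 library left out. Ccr8, Ccr9 and Ccr6 lie to the right of 0, Cxcr3 and Ccr2 to the left, and the ticks of Cxcr6 lie on both sides of 0.

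The promoter windows of the members, from 250 bases before to 50 bases after the RefSeq start site (GRCm38.p6), were searched on both strands for short motifs of transcription factors. Windows were held for 8 members, with 2 for Ccr6. The forkhead motif TGTTTA was found in 1 member's window, that of Cxcr3, 200 bases before the start site, and in 13.4% of all 32851 promoter windows. The longer forkhead motif GTAAACA, whose reverse complement holds TGTTTA, was found in no member's window and in 3.65% of all windows. The GATA motif GATAAG was found in 1 member's window, that of Ccr8, 240 bases before the start site, and in 7.44% of all. The T-box motif TCACACC was in no member's window and in 3.98% of all, and the AP-1 motif TGANTCA was in that of Ccr4 and in 7.81% of all. The short NFAT core GGAAA was in the windows of 5 members and in 61.3% of all, and the Kruppel-like factor core CACCC in those of 4 members and in 57.5% of all. A match is a run of letters and not a binding site. Ccr8, the member with the largest rise, and Cxcr3, 1 of the members that fell, are shown here over the bases of the window that lie before both the RefSeq and the GENCODE start of the gene, 5′ to 3′, with the match of a motif of 6 or more letters in capitals (GATAAG, read on the other strand, in Ccr8 at chr9:120091883-120092113 on the plus strand, and TGTTTA in Cxcr3 at chrX:101734270-101734397 on the minus strand).
Ccr8: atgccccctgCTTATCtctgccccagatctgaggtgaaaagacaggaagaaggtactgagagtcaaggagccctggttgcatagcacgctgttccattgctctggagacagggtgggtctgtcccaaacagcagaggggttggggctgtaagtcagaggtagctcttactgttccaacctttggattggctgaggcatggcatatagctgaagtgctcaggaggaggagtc
Cxcr3: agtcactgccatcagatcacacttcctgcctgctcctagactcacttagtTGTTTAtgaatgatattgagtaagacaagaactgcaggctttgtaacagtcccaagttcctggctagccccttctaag

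Ccr8 had the largest change of the members. It was at 8449, 10893 and 9030 TMM-normalized counts in Foxo1TKO and at 247, 379 and 384 in Foxo1Ctrl. The lowest Foxo1TKO library was at 22.0 times the highest Foxo1Ctrl library, and the Foxo1TKO libraries differed from each other by 1.29-fold at most. The log2 fold change was 4.81 ± 0.24 (SE, edgeR, adjusted p = 3.42e-05), a 28.0-fold rise with a 95% interval of 19.1- to 41.0-fold. It ranked 58 from the top among the log2 fold changes of all genes tested. CCR8, the receptor of CCL1 and CCL8, is carried by type 2 helper cells, by T cells resident in skin and by regulatory T cells in tissue. Foxp3, the defining gene of regulatory T cells, was at 10.1, 14.9 and 6.44 TMM-normalized counts in the same Foxo1TKO libraries and at 15.5, 27.4 and 20.3 in Foxo1Ctrl. Of the 7 regulatory T cell genes tested, 1 was called higher (Ikzf2, 2.68 ± 0.35, edgeR, adjusted p = 0.00157) and 2 lower (Ctla4 and Nrp1). Gata3, the type 2 helper factor, was not called (edgeR, adjusted p = 0.823). The part of either cell type in the Ccr8 result was not tested. In RNA of a whole culture, more cells with a transcript and more transcript per cell cannot be told apart, which holds for every value given here.

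Cxcr3 and Ccr2 were the members that fell, by amounts that differed by less than their errors. Cxcr3 was at 491, 357 and 260 TMM-normalized counts in Foxo1TKO and at 3839, 3225 and 2932 in Foxo1Ctrl, without overlap. The log2 fold change was -3.17 ± 0.26 (SE, edgeR, adjusted p = 0.000208), which ranked 200 from the bottom among all genes tested. CXCR3 binds CXCL9, CXCL10 and CXCL11, which tissues make in response to interferon-γ, and is switched on in type 1 helper cells by the T-box factor Tbx21. Tbx21 itself was at 614, 170 and 89.1 TMM-normalized counts in Foxo1TKO and at 273, 106 and 242 in Foxo1Ctrl, with overlapping ranges and no call (log2 fold change 0.49 ± 0.67, edgeR, adjusted p = 0.645). The other T-box factor listed, Eomes, rose from between 204 and 344 to between 1228 and 1341 (2.26 ± 0.22, edgeR, adjusted p = 0.000425).

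Ccr2, which binds CCL2 and related monocyte-attracting chemokines, was at 98.0, 66.7 and 41.9 TMM-normalized counts in Foxo1TKO and at 551, 768 and 538 in Foxo1Ctrl, without overlap (log2 fold change -3.14 ± 0.33, edgeR, adjusted p = 0.000636). Ccr2 is also a defining receptor of inflammatory monocytes. In these libraries the listed monocyte genes other than Cd68 were each between 0 and 17.2 TMM-normalized counts. Among them Cd14 was lower in Foxo1TKO, as Ccr2 was, at 0 in every library against 8.35, 1.14 and 6.78 in Foxo1Ctrl, and did not pass the filter. Cd68 was at 60.0, 64.9 and 83.7 in Foxo1TKO and at 44.1, 44.6 and 34.9 in Foxo1Ctrl and was not called (edgeR, adjusted p = 0.0990). The part of monocytes in the Ccr2 result was not tested. Of the 50-base stretches of the Ccr2 transcripts, 1.91% also occur in other genes, so a small part of the reads may have been divided between genes.

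Ccr9, the receptor of CCL25 that directs T cells to the small intestine and thymus, rose from a low level. It was at 56.6, 114 and 116 TMM-normalized counts in Foxo1TKO and at 11.9, 29.7 and 12.6 in Foxo1Ctrl, without overlap. The log2 fold change was 2.34 ± 0.47 (SE, edgeR, adjusted p = 0.00944). Of the 50-base stretches of the Ccr9 transcripts 20.1% also occur in other genes, most of them in AC165425.1 and Gm17200, which overlap its exons, and both had no more than 5.58 expected counts in any library. The effective length that RSEM gave Ccr9 was 2878, 2953 and 2816 bases in Foxo1TKO and 4532, 4321 and 3923 in Foxo1Ctrl. With these lengths in the fit the log2 fold change was 2.89, and in the deposited normalized table, which also takes them into account, it was 2.93 on the log2(value + 1) scale.

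Ccr6, the CCL20 receptor of type 17 helper cells and of B cells, was at 60.9, 124 and 122 TMM-normalized counts in Foxo1TKO and at 41.7, 20.6 and 32.9 in Foxo1Ctrl. The genotypes did not overlap, with the lowest Foxo1TKO library close above the highest Foxo1Ctrl library. The log2 fold change was 1.66 ± 0.40 (SE, edgeR, adjusted p = 0.0197). The call was lost without Foxo1TKO replicate 2 (adjusted p = 0.0746), without Foxo1TKO replicate 3 (0.0565) and without Foxo1Ctrl replicate 3 (0.0629). The B cell genes, which mark the other cell type here that carries Ccr6, moved in the opposite direction, and their part in the result was not tested. Rora, which encodes a nuclear receptor of type 17 helper cells, rose from between 421 and 475 to between 2231 and 2752 (log2 fold change 2.53 ± 0.16, edgeR, adjusted p = 7.71e-05). Of the 14 listed transcription factors tested, 3 were called higher and 4 lower, among the latter Hif1a (-2.14 ± 0.25, edgeR, adjusted p = 0.000963). Ahr and Maf were not called (edgeR, adjusted p = 0.160 and 0.217). The part of type 17 helper cells in the Ccr6 result was not tested.

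Cxcr4, Cxcr6 and Ccr4 did not pass the test, and the Foxo1TKO libraries spread widely for Cxcr4 and Ccr4 (coefficients of variation of 67.0% and 92.2%, against 28.5% for Cxcr6). Cxcr4, the CXCL12 receptor that retains cells in bone marrow, was at 82.8, 211 and 384 TMM-normalized counts in Foxo1TKO and at 91.8, 84.6 and 94.95 in Foxo1Ctrl. Replicate 1 lay below every Foxo1Ctrl library and the other 2 above them, so the ranges overlapped (log2 fold change 1.31 ± 0.49, edgeR, adjusted p = 0.0917). The result depended on that library and on the tool, since Cxcr4 was called without Foxo1TKO replicate 1 (1.69, adjusted p = 0.00890), by DESeq2 (1.32, adjusted p = 0.0297) and in edgeR with no filter on low counts (1.31, adjusted p = 0.0384). Over all 15 alternative fits its log2 fold change ran from 0.69 to 1.69.

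Cxcr6 was abundant in both genotypes. It was at 6262, 8999 and 5234 TMM-normalized counts in Foxo1TKO and at 5046, 7758 and 5367 in Foxo1Ctrl, and each group held a high library. CXCR6 binds the membrane-bound chemokine CXCL16 and keeps effector T cells in liver, lung and tumour tissue. The log2 fold change was 0.17 ± 0.25 (SE, edgeR, adjusted p = 0.664), with a 95% interval of -0.40 to 0.75, that is from 0.756 to 1.68 times the Foxo1Ctrl level. The direction turned without Foxo1TKO replicate 2 (-0.0717, adjusted p = 0.889).

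Ccr4, the receptor of CCL17 and CCL22 on type 2 helper and skin-homing T cells, was at 57.5, 13.2 and 12.9 TMM-normalized counts in Foxo1TKO and at 38.2, 53.7 and 43.6 in Foxo1Ctrl. Replicate 1 was above every Foxo1Ctrl library, whereas the other 2 Foxo1TKO libraries were below them. The log2 fold change was -0.67 ± 0.59 (SE, edgeR, adjusted p = 0.457), and without Foxo1TKO replicate 1 it was -1.73 (adjusted p = 0.0240), so this library decided the call. Ccr10, a receptor of skin-homing T cells and plasma cells, had 1, 0 and 1 expected counts in Foxo1TKO and none in Foxo1Ctrl. These values are under the limit of 3 counts that a count of 0 allows in a library, so Ccr10 was not detectable at this depth and no fold change is given.

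Foxo1TKO replicate 1 was the Foxo1TKO library nearest to the Foxo1Ctrl mean for 8 of the 8 tested members, in both directions of change, and for 36.9% of all genes tested. Its Foxo1 level, 85.4, lay between those of the other 2. Among Foxo1Ctrl libraries the members varied about as all genes did, with a median coefficient of variation of 22.0% for the members and 22.3% for all genes tested. Among Foxo1TKO libraries the medians were 35.2% and 19.5%.

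**Figure D2:**
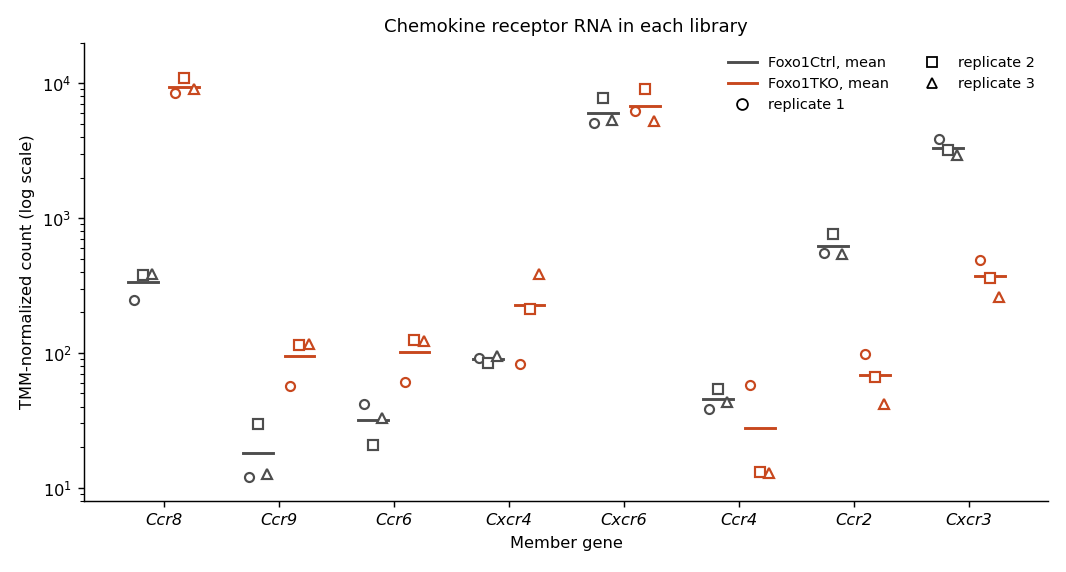
TMM-normalized counts (y axis, log scale) of each tested member in the 3 Foxo1Ctrl and 3 Foxo1TKO libraries, with a symbol for each replicate number and a bar at the mean of each genotype. The genotypes are fully apart for Ccr8, Ccr9, Ccr6, Ccr2 and Cxcr3, and Foxo1TKO replicate 1 (circle) is away from the other Foxo1TKO libraries for Cxcr4 and Ccr4.

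Levels can be compared between genes only per transcript length, as in TPM, which divides counts by effective length and by the library's sum. In Foxo1Ctrl the members lay in the order Cxcr6 (198.8 to 253 TPM), Cxcr3 (117 to 167), Ccr8 (16.7 to 25.9), Ccr2 (12.1 to 13.97), Cxcr4 (2.92 to 3.94), Ccr6 (1.28 to 2.82), Ccr4 (1.15 to 1.27), Ccr9 (0.18 to 0.38) and Ccr10 at 0, and no neighbours in that order overlapped. On TMM-normalized counts per kilobase the order was the same, with overlap of Ccr8 and Ccr2. In Foxo1TKO the order was Ccr8 (551 to 707 TPM), Cxcr6 (186 to 341), Cxcr3 (10.2 to 22.9), Cxcr4 (3.69 to 14.4), Ccr6 (3.95 to 6.99), Ccr9 (1.43 to 2.53), Ccr2 (0.910 to 2.50), Ccr4 (0.380 to 1.59) and Ccr10 (0 to 0.0400). There the neighbours Cxcr3 and Cxcr4, Cxcr4 and Ccr6, Ccr9 and Ccr2, and Ccr2 and Ccr4 were not separated.

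The make-up of the receptor RNA therefore differed between genotypes. Ccr8 held 67.1%, 65.3% and 71.3% of the members' summed TPM in Foxo1TKO and 4.13%, 5.15% and 6.76% in Foxo1Ctrl. Cxcr3 held 2.51%, 1.38% and 1.32% in Foxo1TKO and 41.5%, 28.4% and 33.2% in Foxo1Ctrl. The ratio of Ccr8 to Cxcr3 in TPM was 26.7, 47.3 and 54.0 in Foxo1TKO and 0.0996, 0.182 and 0.203 in Foxo1Ctrl, and it compares genes within a library, so it does not depend on the scaling between libraries. The summed TPM of the members was higher in every Foxo1TKO library (773 to 1083) than in any Foxo1Ctrl library (384 to 411). Over the 23 chemokine receptor genes listed here, which include Ccr7, the sums overlapped, at 1216, 1349 and 955 TPM in Foxo1TKO and 1045, 652 and 1020 in Foxo1Ctrl. Of that sum Ccr8 held 50.2% to 57.8% in Foxo1TKO and 1.59% to 3.25% in Foxo1Ctrl. In the latter genotype Ccr7 held the largest of the shares computed in replicates 1 and 3 (57.8% and 58.5%), and Cxcr6 in replicate 2 (38.9%, against 34.8% for Ccr7).

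**Figure D3:**
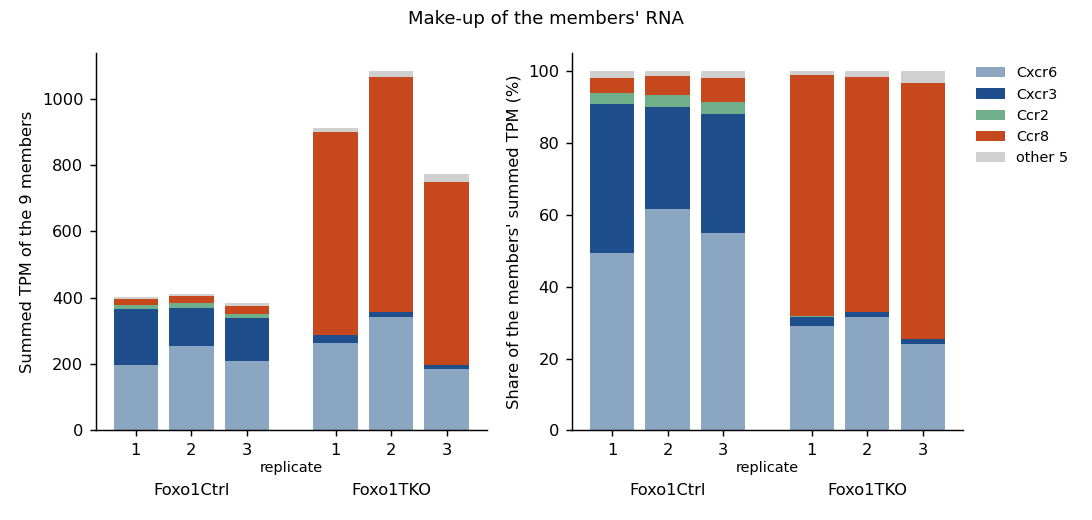
Summed TPM of the 9 members in each library (left) and the share of each in that sum in percent (right), for the 3 replicates of each genotype, with the other 5 members drawn together in light grey. Ccr8 (orange) fills 65.3% to 71.3% of the Foxo1TKO bars, and Cxcr6 and Cxcr3 (blue) fill most of the Foxo1Ctrl bars.

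The members are spread over 5 chromosomes, but 5 of the 9 are on chromosome 9. In GRCm38 coordinates (GENCODE M21) Ccr4 is at chr9:114490316-114504916 on the minus strand, and on the plus strand are Ccr8 at chr9:120092114-120094906, Ccr9 at chr9:123678439-123784330, Cxcr6 at chr9:123806475-123811760 and Ccr2 at chr9:124101950-124113557. Cxcr3 is at chrX:101731535-101734269, Cxcr4 at chr1:128588199-128592293 and Ccr10 at chr11:101172997-101175443, all on the minus strand, and Ccr6 is at chr17:8236043-8257141 on the plus strand. Genes side by side did not always move alike. Ccr9 and Cxcr6 are 22.1 kb apart, and Ccr9 was called higher while Cxcr6 was not called. From the start of Ccr9 to the end of Ccr2 the stretch is 435 kb and holds 8 tested genes. Those called higher in Foxo1TKO were Ccr9 and Gm10052, a processed pseudogene within the Ccr9 gene (log2 fold change 1.21 ± 0.22, edgeR, adjusted p = 0.00642), both at one end. Those called lower were Ccr1 (-1.57 ± 0.48, adjusted p = 0.0476) and Ccr2, both toward the other end, with Lztfl1, Fyco1, Cxcr6 and Xcr1 not called.

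**Figure D4:**
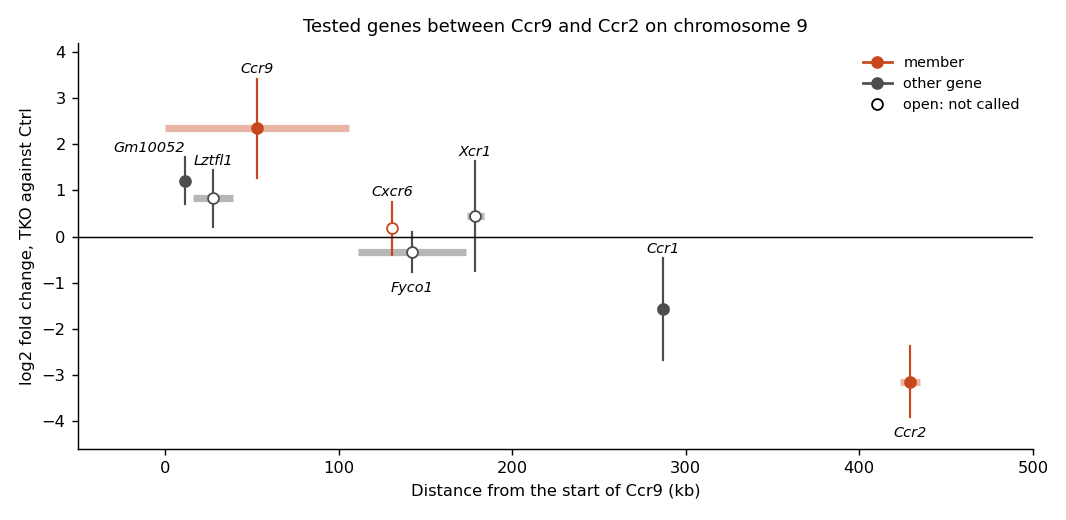
Log2 fold change (y axis, Foxo1TKO against Foxo1Ctrl, with unadjusted 95% intervals) of the 8 tested genes from Ccr9 to Ccr2, by distance in kb from the start of Ccr9. Thick bands give the extent of each gene, orange marks members, and open symbols mark genes not called. The values go from 2.34 for Ccr9 to -3.14 for Ccr2.

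Of 29 other tested genes within 100 kb of a member that are reported here, 6 were called higher and 1 lower. For comparison, 23.0% of all genes tested were called, 11.1% higher and 11.8% lower. Whether genes near a member were called more often than other genes was not tested. Cx3cr1, the fractalkine receptor gene 22.2 kb from Ccr8, was at 22.8, 11.4 and 15.03 TMM-normalized counts in Foxo1TKO and at 0, 0 and 3.88 in Foxo1Ctrl (log2 fold change 2.86 ± 0.76, edgeR, adjusted p = 0.0299). Gm47050, a transcript of unproven coding potential 0.8 kb past the end of Ccr8, was at 167, 125 and 148 in Foxo1TKO and at 0, 10.3 and 0 in Foxo1Ctrl (5.08 ± 0.83, adjusted p = 0.00405). It thus moved with Ccr8, and whether its reads come from longer Ccr8 transcripts was not tested. Ogt, 47.2 kb from Cxcr3, was the gene called lower (-0.75 ± 0.13, adjusted p = 0.00572), and Fgfr1op near Ccr6 (1.23 ± 0.20, adjusted p = 0.00374), Psmc3ip and Tubg2 near Ccr10 were the others called higher.

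Most ligands of the members had few or no reads. Of the 16 listed, 4 passed the filter and none was called, with a median log2 fold change of -0.41 against 0.01 for all genes. Cxcl11, Cxcl12, Ccl7, Ccl12, Ccl20 and Ccl8 were at 0 in every library. The ligands tested were Ccl22, which binds CCR4 and was at 105, 83.4 and 36.5 TMM-normalized counts in Foxo1TKO and 163, 70.9 and 165 in Foxo1Ctrl, the CCR9 ligand Ccl25, the CXCR6 ligand Cxcl16 and the CCR10 ligand Ccl27a. Ccl27a had the largest difference of these, 0.97 ± 0.32, without passing the test (edgeR, adjusted p = 0.0598). Ccl1, the CCR8 ligand, had 12, 6 and 8 expected counts in Foxo1TKO and none in Foxo1Ctrl, where up to 3 counts in each library would be compatible with 0, and it was not tested.

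The genes through which these receptors signal changed in both directions. Of 24 genes listed, 21 were tested, 3 were called higher and 7 lower, with a median log2 fold change of -0.39. Of the inhibitory G protein α subunit genes, Gnai3 had the higher level (115 to 175 TPM, against 53.0 to 63.1 for Gnai2). Gnai3 was lower in every Foxo1TKO library (5768 to 5797 TMM-normalized counts) than in any Foxo1Ctrl library (7849 to 8719), with a change under 1.5-fold and so no call (log2 fold change -0.50 ± 0.13, edgeR, adjusted p = 0.0270). Gnai2 was between 1475 and 1668 TMM-normalized counts in Foxo1TKO and between 1551 and 1662 in Foxo1Ctrl (log2 fold change -0.02 ± 0.13, edgeR, adjusted p = 0.928). The γ isoform of PI 3-kinase changed in its subunits in different ways. The catalytic subunit gene Pik3cg rose (1.54 ± 0.26, adjusted p = 0.00483), as did the regulatory subunit gene Pik3r6 (2.77 ± 0.65, adjusted p = 0.0178), whereas the other regulatory subunit gene, Pik3r5, fell from between 310.1 and 380.4 to between 64.4 and 74.4 TMM-normalized counts (-2.31 ± 0.21, adjusted p = 0.000287). Dock2 and Prex1, which activate Rac for cell migration, fell (-1.14 ± 0.20 and -1.69 ± 0.24, adjusted p = 0.00597 and 0.00208). Of the genes that end receptor signalling, the receptor kinase gene Grk2 and the arrestin gene Arrb1 fell (-1.11 ± 0.22 and -0.94 ± 0.28, adjusted p = 0.00888 and 0.0447). Among regulators of G protein signalling, Rgs1 and Rgs2 fell (-0.97 ± 0.21 and -1.74 ± 0.17, adjusted p = 0.0138 and 0.000425) and Rgs16 rose (2.67 ± 0.43, adjusted p = 0.00378).

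The 15 transcription factors listed here for their ties to these receptors changed in both directions, with 3 of the 14 tested called higher (Eomes, Rora and Rxra) and 4 lower (Klf2, Prdm1, Runx3 and Hif1a). Klf2, which restrains inflammatory chemokine receptors in naive T cells, was at 5.92, 1.75 and 0 TMM-normalized counts in Foxo1TKO and at 649.8, 643 and 667 in Foxo1Ctrl. Gata3, the type 2 helper factor, was between 5350 and 8242 in Foxo1TKO and between 3138 and 9776 in Foxo1Ctrl (log2 fold change -0.15 ± 0.40, edgeR, adjusted p = 0.823). Of the 14 other chemokine receptor genes listed here, 7 were tested, with 2 called higher (Ccrl2 and Cx3cr1) and 3 lower (Ccr1, Ccr7 and Cxcr1). Ccr7, the lymph node homing receptor, was at 5985, 6233 and 4253 in Foxo1TKO and at 16046, 7265 and 15896 in Foxo1Ctrl (-1.25 ± 0.31, adjusted p = 0.0237). Cxcr5, the B cell follicle receptor, was between 593 and 1111 in Foxo1TKO and between 152 and 697 in Foxo1Ctrl and was not called (0.68 ± 0.51, adjusted p = 0.383).

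The genes whose pattern over the 6 libraries was most like that of Ccr8, by Pearson's r of log2(CPM + 1) among the 9234 genes whose mean reached 100 normalized counts, were Apol7b (r = 0.9994), Cd200r1 (0.9982) and Nfu1 (0.9982). Those most like Cxcr3 were Gpnmb (0.9995), Ttc39b (0.9989) and Itgb3 (0.9978). The likeness was not particular to these genes, as 791 genes had r over 0.95 with Ccr8 and 490 with Cxcr3, and the points share a difference between 2 genotypes.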

How the data were processed

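The RNA of 3 Foxo1TKO and 3 Foxo1Ctrl cultures was sequenced, and libraries were assigned to genotypes by their labels. The authors aligned reads with STAR 2.7.6a to Ensembl GRCm38, kept reads at a limited number of loci and counted them with RSEM 1.3.1. Strandedness and library kit are not given in the sources used here. The authors deposited per library expected counts, TPM, FPKM and effective lengths per gene. They also deposited a normalized signal table, which equalled expected counts corrected for DESeq2 size factors and relative effective length for 100% of values within 0.1%.

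Expected counts were rounded. Genes reaching 10 counts in 3 or more libraries (13691) were fitted with edgeR 4.0.16 in R 4.3.3 (TMM, quasi-likelihood test, prior count 1, genotype as the only term), with Benjamini-Hochberg adjustment over all of them and a gene was called when its adjusted p was below 0.05 and its change exceeded 1.5-fold. DESeq2, the tool of the authors, was run here as an alternative (version 1.42.0) together with limma 3.58.1, other scalings, filters and thresholds, the replicate number as a block, and each library left out. On simulated counts with 200 of 13691 genes changed, edgeR recovered 18% of the 2-fold and 81% of the 4-fold changes, with 3.88% of its calls false. In the data 3144 genes were called. With fewer genes changed the adjustment of p-values is stricter, so these rates do not give the recovery in the data themselves. Small changes of single genes may still be missed.

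The members and gene lists (B cell, plasma cell, monocyte and macrophage, dendritic cell, neutrophil, NK cell, CD8 and gamma delta T cell, T cell, regulatory T cell, erythroid, proliferation, stromal and endothelial, other chemokine receptors, ligands, receptor signalling and transcription factors) were chosen with earlier results of these data known. Some genes of the lists and neighbourhoods are not reported here, and medians of the lists they belong to are not given. Named genes are the members, Foxo1, list genes on which a result turns, tested neighbours within 100 kb and the 3 genes most like the member with the largest rise and with the largest fall. Standard errors are the log2 fold change divided by the square root of the F statistic, and 95% intervals are unadjusted. The limit of 3 counts covers counting error only. Figures were drawn with matplotlib 3.10.9.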

Additional observations from a re-analysis of the deposited data

How the results depend on the processing

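Ccr8, Cxcr3, Ccr2 and Ccr9 kept their direction and their call in all 15 alternative fits, with log2 fold changes of 4.62 to 4.91, -3.44 to -2.97, -3.50 to -2.89 and 2.12 to 2.93. Between 5 and 6 members were called by the other tools, scalings and filters, 4 with stricter limits (adjusted p below 0.01, more than 2-fold), and 4 to 7 with a library left out (2 to 4 higher, 2 to 3 lower). The settings that changed a member's call were the removal of a library for Ccr6, Cxcr4 and Ccr4, for Ccr6 also the stricter limits, and for Cxcr4 also DESeq2 and the lack of a filter. Cxcr6 ran from -0.0717 without Foxo1TKO replicate 2 to 0.41 without Foxo1Ctrl replicate 2. In that fit and the others the cause was not tested. Over all genes 3144 were called (1525 higher, 1619 lower), 1854 to 3321 with a library left out (874 to 1701 higher, 980 to 1620 lower), the fewest without Foxo1TKO replicate 2 and 2031 without Foxo1Ctrl replicate 1 (942 higher), and 1412 at the stricter threshold (641 higher, 771 lower). DESeq2 called 3694. Whether replicate numbers pair the samples is not given in the sources used here. The study used paired t tests by experiment for protein levels and cell division in such cultures. Deviations of same-numbered libraries from their group means correlated at 0.432, 0.198 and -0.109. Foxo1TKO replicates 1 and 2 each correlated best with the Foxo1Ctrl library of the same number. Foxo1TKO replicate 3 correlated best with Foxo1Ctrl replicate 2 (0.301), so these values do not settle the pairing. With the replicate block 3318 genes were called, 2969 of them shared, and 5 members (3 higher, 2 lower). Separated neighbours in the order of levels numbered 8 in Foxo1Ctrl and 4 in Foxo1TKO by TPM and by FPKM, and 7 and 4 by counts per kilobase. With 3 libraries per genotype and fewer than 150 counts per library for Ccr6, Ccr9 and Ccr4, moderate differences of these genes may be missed.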
